A study of Mus musculus with 48 samples.

Results

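Somatic cells of the early mouse ovary from a MEHP lineage were compared directly with those from a vinclozolin (VZN) lineage, without reference to the unexposed controls. The comparison took in 16 of the 48 small RNA libraries of the series, chosen by their labels: every somatic cell (SC) library of a MEHP or VZN group. These form 8 groups of 2 libraries, one group for each exposure in each of 4 generation classes named F1, F2, F2Sy and F3. All animals were wild-type CD1 mice, and all cells came from female embryos at embryonic day 13.5. Founder females took the compound with their water until day 13 of pregnancy, at a daily intake of 35 mg MEHP or 50 mg VZN for each kg of body weight, and every exposed group also received the vehicle, DMSO at 0.3% (v/v). The intakes were estimates, and the doses were not matched, so each difference below is between lineages as exposed and not between compounds at an equal dose. F1 embryos were exposed in the uterus. F2 and F3 descended from them through the mother's side, and both parents of F2Sy embryos came from a lineage with the same exposure. Gonads freed of the mesonephros were pooled in groups of about 80, germ cells were held back by anti-CD15 magnetic beads, and the cells that passed were the somatic fraction, with a stated purity over 90%. The labels do not state that paired libraries of a group are from different pools or litters, so the p-values rest on a spread that may be purely technical.

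MicroRNAs (miRNAs) are short RNAs that guide Argonaute proteins to messenger RNAs, mainly by pairing of the seed, the bases just after the first base of the miRNA, and so lower the output of their targets. MEHP is the monoester to which a common phthalate plasticiser is broken down, and it can activate peroxisome proliferator activated receptors (PPARs). Vinclozolin is a fungicide whose breakdown products block the androgen receptor. At this stage the somatic cells of the ovary include the precursors of granulosa cells, which surround the germ cells, together with stromal, endothelial and blood cells.

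The authors deposited whole-number counts for 563 mature miRNAs. The listed counts of a library summed to 7460018 to 11761591, with a mean of 10024573 in the 8 MEHP and 9713582 in the 8 VZN libraries (exact permutation within classes, two-sided, p = 0.517, adjusted over 2 library measures p = 0.673, smallest possible p 0.00154). A blank fills 21.3% of the cells of the 16 libraries, and 362 miRNAs were listed in all 16. These 362 hold between 99.4 and 99.7% of the listed counts of a library and were tested. Levels are given as CPM, the counts scaled to a total of 1e+06 listed counts. The somatic label was checked against marker levels: miR-202-5p, a miRNA of gonadal support cells, stood at 29191 to 98714 CPM in these libraries against 1158 to 11791 CPM in the 16 germ cell libraries of the same lineages. The mesenchymal miR-199b-3p stood at 14064 to 39968 against 1207 to 6878 CPM, and the germ cell marker miR-183-5p at 292 to 3681 against 13283 to 52588 CPM. One library stands apart the most. MEHP F3 library 1 had a median correlation with the other 15 libraries of 0.934 on the log2 scale, where the others had 0.953 to 0.979, and its listed counts came from miRNAs with an average GC content of 48.6% against 44.0 to 45.5% in the others. The next lowest correlation, 0.953, was that of VZN F3 library 2. There the 10 miRNAs with the highest mean level took 38.3% of listed counts, the lowest share of the 16 libraries. The F3 call count and most F3 values of the leading miRNAs and lists are therefore also given without MEHP F3 library 1. Values without VZN F3 library 2 are given for fewer of them, and how far the others rest on that library was not tested.

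The mature sequences below are those on which the class comparisons turn. They come from RefSeq (GRCm38.p6, which is not the build the authors aligned to), read 5′ to 3′, and capitals mark the seed, bases 2 to 8. A RefSeq sequence was found for 317 of the 362 miRNAs tested. The first 3 are transcribed together from the minus strand of chromosome 6 and are shown because they share a cluster but not a seed. miR-183-5p lies at chr6:30169711-30169732, outside any annotated gene on its strand.
miR-183-5p: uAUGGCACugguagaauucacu
miR-96-5p: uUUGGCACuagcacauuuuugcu
miR-182-5p: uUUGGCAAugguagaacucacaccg
The next ones are those with the smallest p in F3. miR-186-5p lies at chr3:157544285-157544306 on the plus strand, in an intron of Zranb2. miR-30e-5p lies at chr4:120772660-120772681 on the minus strand, in an intron of Nfyc. miR-195a-5p, at chr11:70235062-70235082, carries the same seed as the abundant X-linked miR-322-5p.
miR-186-5p: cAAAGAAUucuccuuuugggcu
miR-30e-5p: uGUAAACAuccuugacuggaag
miR-195a-5p: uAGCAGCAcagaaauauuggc
miR-322-5p: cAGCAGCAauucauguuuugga
The erythroid miR-451a, the GC-rich miR-423-5p and miR-323-5p and the X-linked miR-471-3p are shown for the F1 and F2Sy comparisons. The GC content of the 4 sequences is 36.4, 56.5, 72.7 and 36.4%.
miR-451a: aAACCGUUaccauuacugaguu
miR-423-5p: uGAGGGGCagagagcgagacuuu
miR-323-5p: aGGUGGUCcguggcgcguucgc
miR-471-3p: uGAAAGGUgccauacuauguau
Among germ cell miRNAs, miR-291a-3p, miR-294-3p and miR-295-3p carry one seed, the one known from embryonic stem cells.
miR-291a-3p: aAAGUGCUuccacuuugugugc
miR-294-3p: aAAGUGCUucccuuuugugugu
miR-295-3p: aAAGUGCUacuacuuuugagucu

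Averaged over the 4 generation classes, no miRNA passed the test between the MEHP and VZN lineages. The mean differences were small. The median of the 362 log2 fold changes (MEHP over VZN) was -0.05 and the median size 0.11. The 90th percentile of the size was 0.27 and the range -0.85 to 0.59. Class differences of opposite sign cancel in this mean. The median size was 0.21 in F1, 0.20 in F2, 0.24 in F2Sy and 0.37 in F3. The 90th percentile was 0.65, 0.69, 0.63 and 1.13 in the same order. Single classes were also less precise, as given below. Of the 362 miRNAs, 0% were called at an adjusted p under 0.05 (edgeR quasi-likelihood test, Benjamini-Hochberg adjustment, smallest adjusted p 0.974), and DESeq2 also called 0. At an unadjusted p under 0.05 there were 5, or 1.38%. The count was 4 without MEHP F3 library 2 (miR-302a-3p, miR-32-5p, miR-340-5p and miR-369-3p) and 1 without VZN F3 library 1 (miR-183-5p), and 0 without any of the other 14 libraries. A p above the threshold does not show equality, so the intervals matter more. The 95% interval lay within a 2-fold change in either direction for 349 miRNAs (96.4%) and within 1.5-fold for 245 (67.7%).

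**Figure D1:**
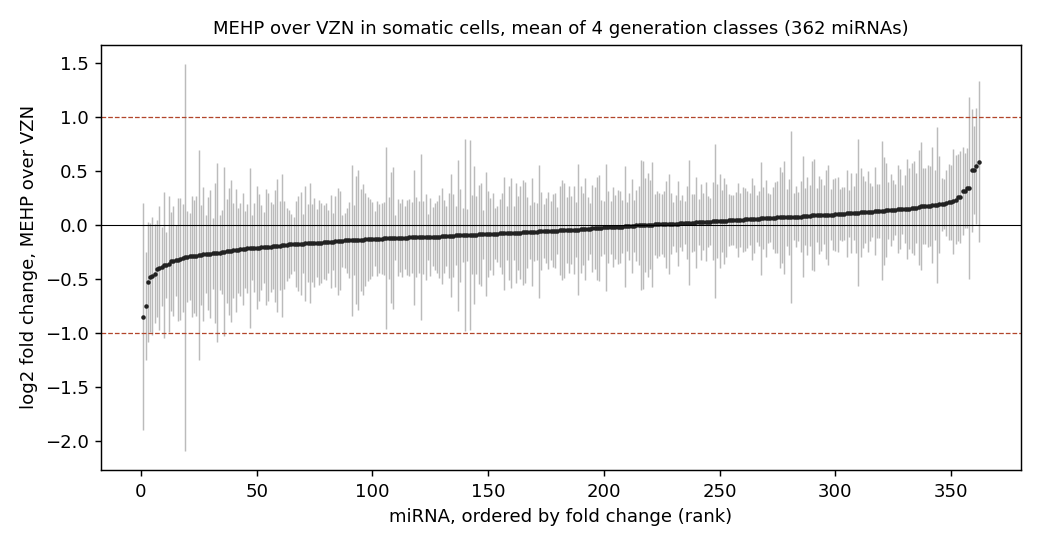
Log2 fold change (MEHP over VZN, vertical axis) of 362 miRNAs in somatic cells, averaged over the 4 generation classes and ordered by size (horizontal axis); bars are 95% intervals and dashed lines mark a 2-fold change. All fold changes lie between -0.85 and 0.59, and 349 intervals lie between the dashed lines.

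None of the most abundant miRNAs of the somatic fraction passed the test. The 10 with the highest mean level took 43.9% ± 1.82 of listed counts in MEHP and 44.3% ± 2.66 in VZN (SD, n = 8 each). miR-26a-5p, transcribed from introns of Ctdspl and Ctdsp2, stood at 52791 to 73204 CPM in MEHP and 58666 to 74365 in VZN, with a log2 fold change of 0.01 ± 0.10 (SE) and a 95% interval of -0.20 to 0.23. The difference was -0.18 ± 0.18 for the gonadal miR-202-5p, -0.18 ± 0.12 for miR-322-5p of the X-linked cell cycle cluster, and -0.06 ± 0.13 for miR-10b-5p, which lies among the Hoxd genes. It was 0.07 ± 0.10 for miR-99a-5p and 0.14 ± 0.19 for miR-99b-5p, which share the miR-99/100 seed. The mesenchymal miR-199b-3p, whose mature sequence miR-199a-3p shares so that the reads of the pair cannot be told apart, had -0.02 ± 0.15. The remaining ones had 0.19 ± 0.11 (miR-181a-5p), -0.13 ± 0.18 (let-7c-5p) and 0.03 ± 0.16 (miR-92a-3p of the miR-17-92 family). Without MEHP F3 library 1 the mean was -0.02 for miR-202-5p, -0.07 for miR-322-5p and -0.06 for miR-92a-3p. In edgeR none of the 10 had an adjusted p under 0.974, and the most extreme bound of their intervals was -0.57.

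The 5 miRNAs with an unadjusted p under 0.05 were miR-183-5p, miR-323-5p, miR-322-3p, miR-10b-3p and miR-486b-5p, each with an adjusted p of 0.974 (edgeR). miR-183-5p averaged -0.75 ± 0.23 (95% interval -1.25 to -0.25) and is described by class below; without VZN F3 library 2 its mean was -0.43. miR-323-5p, of the imprinted Dlk1-Dio3 cluster, stood at 41.2 and 52.1 CPM in MEHP F1 against 24.8 and 18.1 in VZN F1, and at 57.0 and 45.3 against 15.1 and 26.1 in F3. In F2 and F2Sy its libraries overlapped or leaned the other way (28.2 and 43.6 against 23.8 and 45.7, and 22.2 and 14.7 against 25.8 and 23.2), and the mean was 0.51 ± 0.19. miR-322-3p, the passenger strand of miR-322, averaged -0.37 ± 0.14 and miR-10b-3p -0.39 ± 0.17, both with the largest part of the difference in F3 (-0.95 and -1.28, or -0.60 and -0.95 without MEHP F3 library 1). miR-486b-5p, a miRNA of red cells and muscle, averaged 0.54 ± 0.25 and was the only one of the 5 with the same sign in all 4 classes, at 0.81, 0.83, 0.46 and 0.07. Its F3 value turned to -0.20 without MEHP F3 library 1, and its mean was 0.30 without MEHP F2Sy library 2. Over all miRNAs tested, 20 (5.52%) kept one sign in the 4 classes. Among the next smallest p were miR-335-5p, from an intron of the imprinted gene Mest (-0.33 ± 0.15), miR-96-5p (-0.45 ± 0.21, -0.28 without MEHP F3 library 1), miR-291a-3p (-0.49 ± 0.23), miR-291b-5p (-0.40 ± 0.21), miR-3102-5p.2-5p (-0.53 ± 0.26), let-7d-3p (0.34 ± 0.17) and miR-485-5p (0.32 ± 0.16). The ends of the range, miR-3968 at -0.85 ± 0.48 and miR-700-5p at 0.59 ± 0.34, were looked up after their values were seen. They were -0.50 without VZN F3 library 2 and 0.24 without MEHP F3 library 1.

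Libraries of the same group differed by about as much as libraries of different lineages. The median absolute difference in log2 CPM over the 362 miRNAs was 0.24 between the 2 MEHP F1 libraries and 0.28 between the 2 VZN F1 libraries, while the 4 pairs of a MEHP with a VZN library gave 0.19 to 0.34. In F2 the values were 0.31 and 0.23 within groups against 0.25 to 0.32 between lineages. In F2Sy they were 0.26 and 0.25 against 0.23 to 0.35. The 2 MEHP F3 libraries were the farthest apart of any group, at 0.60, against 0.33 for VZN F3 and 0.21 to 0.72 between lineages. The counts of each pair of libraries differed far beyond read sampling, with chi-square values of at least 554 per degree of freedom, so no group held 1 library deposited as a pair.

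**Figure D2:**
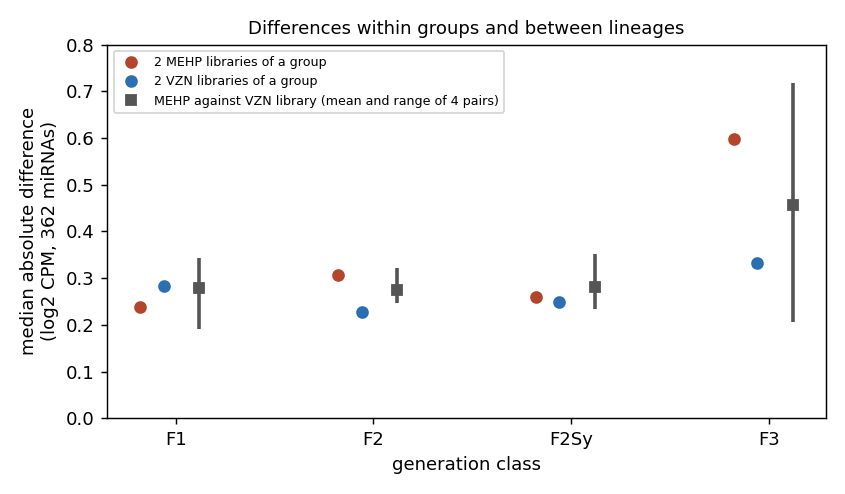
Median absolute difference in log2 CPM over 362 miRNAs (vertical axis) by generation class (horizontal axis); circles compare the 2 libraries of one group, and squares with bars give the mean and range of the 4 pairs of a MEHP with a VZN library. Circles and bars lie at like heights in F1, F2 and F2Sy, and the 2 MEHP F3 libraries are 0.60 apart.

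In F2, miR-183-5p was lower in MEHP than in VZN somatic cells and was the single call of that class. miR-183-5p is one of 3 miRNAs cut from a transcript that is known from sensory organs, epithelia and germ cells. Its level was 335 and 292 CPM in the MEHP F2 libraries and 2160.4 and 1808 in the VZN F2 libraries, which do not overlap. In F1 it was 1090.5 and 1258 in MEHP and 1062 and 1418 in VZN. In F2Sy it was 2189.8 and 2147 in MEHP against 2446 and 1507 in VZN, and in F3 1608 and 2014 against 954 and 3681. The MEHP F2 pair is thus below all 14 other somatic libraries, and the lineages overlap in F1, F2Sy and F3. The log2 fold change in F2 was -2.67 ± 0.49 (SE, 95% interval -3.73 to -1.61, adjusted p = 0.0489, edgeR), against -0.17, 0.24 and -0.40 in the other classes. This 1 call is 0.276% of the 362 miRNAs, beside 26 (7.18%) at an unadjusted p under 0.05, of which 12 (3.31%) were lower and 14 (3.87%) higher in MEHP. Groups without overlap were common, at 36.2% of all miRNAs in F2. Its adjusted p sits close to the threshold: it was above 0.05 when any of 14 of the 16 libraries was left out, while the fold change stayed between -2.82 and -2.51.

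The other members of the cluster were not called in F2, and the difference between members was not tested. miR-182-5p stood at 689 and 346 CPM in MEHP F2 and 1503 and 1063 in VZN F2, a log2 fold change of -1.32 ± 0.53, in the same direction, that missed the threshold (adjusted p = 0.651, edgeR). miR-96-5p stood at 284 and 409 against 380.2 and 304 CPM, overlapping, with 0.01 ± 0.42. In F3 the order was different, with miR-96-5p at 126 and 338 against 673 and 998 CPM (-1.89 ± 0.43, adjusted p = 0.0869, edgeR, and -1.27 without MEHP F3 library 1) and miR-183-5p overlapping. The cluster also marks germ cells, and the part of germ cells left in the somatic fraction was not tested. The germ cell fractions of the same classes held miR-183-5p at 38619 and 38037 CPM in MEHP F2 and 46682 and 49639 in VZN F2. Of the other germ cell clusters in F2, the summed level of the miR-290-295 cluster was 6652 and 9465 CPM in MEHP F2 and 9444 and 6758 in VZN F2, and that of the X-linked cluster 2585 and 8649 against 6848 and 3873, so both overlap. That of the miR-302-367 cluster was 346 and 338 against 396 and 361 CPM, lower in MEHP without overlap, with all 3 tested members below 0 (median -0.21) and 0 called. In such bulk samples, fewer cells of a type and less RNA per cell cannot be told apart.

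**Figure D3:**
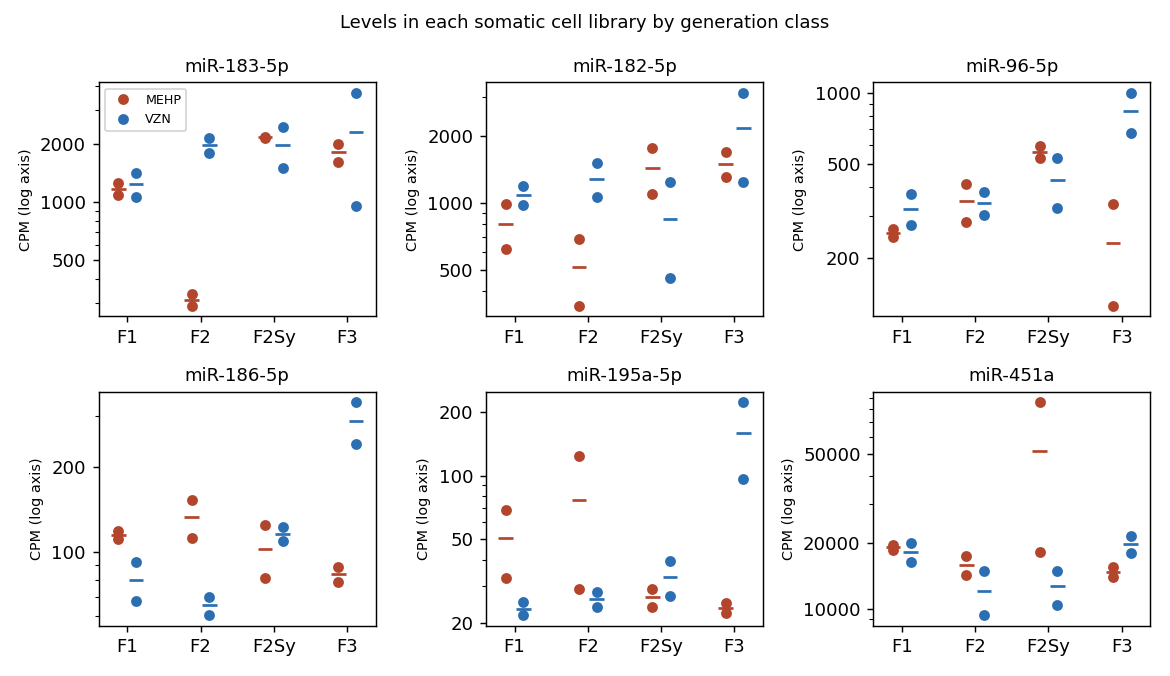
CPM (vertical log axes, one panel per miRNA) in each of the 16 somatic libraries by generation class (horizontal axes); points are libraries and bars the mean of the 2 libraries of a group. The 2 MEHP F2 libraries lie below all others for miR-183-5p, the VZN F3 libraries lie highest for miR-186-5p, and 1 MEHP F2Sy library lies highest for miR-451a.

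In F3, miR-186-5p was lower in MEHP than in VZN and was again the single call (0.276% of 362), beside 69 miRNAs (19.1%) at an unadjusted p under 0.05, 48 of them lower (13.3%) and 21 higher (5.8%) in MEHP. Its level was 89.0 and 78.9 CPM in MEHP F3 and 239.8 and 336 in VZN F3. The other libraries held 60.3 to 153 CPM, so that the VZN F3 pair is the one out of line; the lineages did not overlap for 40.1% of all miRNAs in F3. In F2 the lineages were also separate but in the opposite order, at 112 and 153 in MEHP and 70.0 and 60.3 in VZN. The log2 fold change was -1.82 ± 0.31 in F3 (95% interval -2.51 to -1.14, adjusted p = 0.0300, edgeR), 1.02 ± 0.31 in F2, 0.43 in F1 and -0.08 in F2Sy. Without MEHP F3 library 1 it was -1.83 and no longer called, and without VZN F3 library 2 it was -1.56 and no longer called.

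The miR-186-5p call was also lost when any single MEHP F1, VZN F1, VZN F2 or VZN F2Sy library was left out. The same held with the control somatic libraries in the fit, with offsets that take out a GC trend, and with a term for replicate number. The number of F3 calls turned on single libraries. It was 0 without MEHP F3 library 1, with 24 miRNAs at an unadjusted p under 0.05, and 102 (25 higher and 77 lower) without MEHP F3 library 2, which leaves library 1 to stand for the group. It was 11, all lower in MEHP, without VZN F3 library 1 and 0 without VZN F3 library 2. With 1 library in a group, that library is assumed to vary as the other groups do. DESeq2 called 22 of the 362 miRNAs in F3 (3 higher, 19 lower), and the DESeq2 calls in F3 given for lists below are among them. miR-195a-5p, of the miR-15/16 family that limits cyclins, stood at 22.5 and 24.8 CPM in MEHP F3 against 96.4 and 222 in VZN F3, with -2.80 ± 0.61 (adjusted p = 0.0869, edgeR), or -2.64 without MEHP F3 library 1. In F2 it leaned the other way through 1 library, at 29.1 and 124 against 23.9 and 28.1. miR-322-5p, which shares its seed, stood at 36641 and 56918 against 56733 and 55337 CPM, with -0.30 ± 0.23, which turned to 0.06 without that library. miR-30e-5p stood at 929 and 1357 against 1896 and 3565 CPM (-1.30 ± 0.30, adjusted p = 0.0869, edgeR, and -0.97 without it). For miR-186-5p, miR-195a-5p and miR-30e-5p VZN F3 library 2 gave the highest level of the 16. The same library held miR-125b-5p at 36231 CPM, where the other 15 held 3173 to 9196.

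In F1 and F2Sy nothing was called by edgeR. In F1, 0% were called (smallest adjusted p 0.993), 6 (1.66%) were at an unadjusted p under 0.05, all higher in MEHP, and DESeq2 called 0. miR-423-5p was at 638 and 466 CPM in MEHP F1 and 233 and 91.4 in VZN F1, a log2 fold change of 1.64 ± 0.60, and miR-3102-3p, from an exon of Arhgef17, at 111 and 83.9 against 29.3 and 21.2 (1.84 ± 0.69). In neither do the lineages overlap, as held for 42.5% of all miRNAs in F1. In F2Sy, 0% were called (smallest adjusted p 0.460), 11 (3.04%) were at an unadjusted p under 0.05, 7 higher (1.93%) and 4 lower (1.1%) in MEHP, and DESeq2 called 2, miR-451a and miR-3102-5p.2-5p. miR-451a, the miRNA of maturing red cells that is cut by Argonaute 2 in place of Dicer, stood at 18173 and 85923 CPM in MEHP F2Sy and 10418 and 14924 in VZN F2Sy (2.15 ± 0.54). The 12 libraries of the other classes held 9418 to 21398 CPM, so the difference rests on MEHP F2Sy library 2, and without it the log2 fold change was 0.59. Without MEHP F2Sy library 1 it was 2.91 and the only call of the class. miR-3102-5p.2-5p stood at 34.1 and 31.4 against 133 and 148 CPM in F2Sy (-2.00 ± 0.53) and at 39.4 and 27.1 against 101 and 133 in F2 (-1.81 ± 0.52). In F3 it leaned the other way, at 159 and 101 against 31.0 and 79.3 (1.19 ± 0.52, 0.92 without MEHP F3 library 1), and no class passed the threshold.

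In edgeR with all libraries in the fit, the difference between the lineages was not shown to depend on the generation class for any miRNA. The joint test of the 4 class differences called 0% of 362 (smallest adjusted p 0.0711, edgeR), with 43 (11.9%) at an unadjusted p under 0.05, and DESeq2 called 14. The smallest p belonged to miR-186-5p, followed by miR-195a-5p, miR-3102-5p.2-5p, miR-30e-5p, miR-183-5p and miR-3102-3p, with adjusted p-values of 0.0711 to 0.231 (edgeR). Without VZN F3 library 2 miR-183-5p alone passed, with an adjusted p of 0.00448, and without MEHP F3 library 2 the count rose to 53. It was 6 without VZN F3 library 1, 2 without MEHP F2 library 1 and 1 without MEHP F2Sy library 1. The precision of a single class was lower than that of the mean: its median SE was 0.34 on the log2 scale in each class against 0.17 for the mean, and the 95% interval lay within a 2-fold change for 51.7% of miRNAs in F1, 54.1% in F2, 50.3% in F2Sy and 37.3% in F3.

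None of the miRNAs linked to the receptors on which the compounds act passed the edgeR test between the lineages with all libraries in the fit. Of the 10 tested members of the androgen receptor list, which target the receptor or answer to it and are known mainly from human prostate cells, 0 were called in any class, and 2 of 10 had a mean fold change above 0, against 39.5% of all 362. Their median was -0.15, beside -0.05 over all miRNAs, and they ranged from -0.29 to 0.04; without MEHP F3 library 1 the median was -0.03. miR-21a-5p, the most abundant, had -0.14 ± 0.14, miR-24-3p -0.01 ± 0.15, miR-125b-5p -0.21 ± 0.26 and miR-27a-3p -0.25 ± 0.36. Single libraries carried the last pair: miR-125b-5p turned to 0.14 without VZN F3 library 2, and miR-27a-3p was 0.0028 without VZN F1 library 1. In F3 the median was -0.54 beside -0.13 for all, with 5 members lower and 1 higher in MEHP at an unadjusted p under 0.05, as were 13.3% and 5.8% of all 362; without MEHP F3 library 1 the median was -0.11. The summed level of the list in F3 was 31630 and 37666 CPM in MEHP against 46801 and 66105 in VZN. The lineages do not overlap, as held for 40.1% of all miRNAs in F3, and VZN F3 library 2 stands highest of the 16 libraries. Without MEHP F3 library 2, members of the androgen receptor, PPAR and estrogen receptor lists passed in F3, as did members of most other lists. That fit leaves library 1 to stand for its group. It also called miR-32-5p for the mean of classes. Of the 9 tested members of the PPAR list, which target PPAR messenger RNAs or genes of fat metabolism, 0 were called, and the median was -0.11 with 2 of 9 above 0, while DESeq2 called miR-130b-3p in F3. miR-27b-3p, which pairs with the PPARG messenger RNA, had -0.08 ± 0.12, and miR-103-3p, an insulin sensitivity miRNA, 0.02 ± 0.12. Of the 6 tested on the estrogen receptor list 0 were called, the median was -0.05, and miR-22-3p, which pairs with the estrogen receptor alpha messenger RNA in human cells, had -0.08 ± 0.11.

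miRNAs typical of gonadal support and mesenchymal cells had medians near that of all miRNAs. Of 6 tested gonadal lineage miRNAs 0 were called, 4 of 6 were above 0 and the median was 0.03; miR-140-5p had -0.13 ± 0.15 and miR-224-5p, a granulosa miRNA, 0.08 ± 0.12. Of 14 mesenchymal miRNAs 0 were called, 7 of 14 were above 0 and the median was -0.01, a sign that flips with the scaling of the libraries. Their summed level was 164005 to 200338 CPM in MEHP and 164947 to 184020.2 in VZN. Of the tested members of the miR-322 cluster 3 of 9 were above 0, with a median of -0.15. DESeq2 called miR-322-3p lower in F3. Of the 59 tested members of the imprinted Dlk1-Dio3 cluster, maternally expressed and abundant in embryonic mesoderm, 0 were called by edgeR and 30 of 59 were above 0 on average, with a median of 0.01. By class that median was 0.25 in F1, -0.03 in F2, -0.15 in F2Sy and -0.01 in F3, where the sign flips with the scaling and the value was 0.13 without MEHP F3 library 1. In F1 49 of 59 were above 0, against 54.1% of all miRNAs. In F3 the members ranged from -2.30 to 1.27. There 5 were higher and 5 lower at an unadjusted p under 0.05 (edgeR), as were 5.8% and 13.3% of all miRNAs. DESeq2 called 5 members in F3, 2 of them higher in MEHP, beside 22 of all 362 miRNAs. miR-127-3p, its most abundant member, had 0.10 ± 0.16.

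Among the list medians, the widest range over the 4 classes belonged to germ cell miRNAs. The X-linked cluster, expressed in germ cells and best known from the testis, had 13 tested members, 0 of them called in any class. With blanks at the smallest listed count, 2 further members that are blank in some libraries, miR-465a-5p and miR-881-5p, were called higher in MEHP F2Sy. In F3 DESeq2 called miR-547-3p lower. All 13 were lower in MEHP in F1 (median -0.77, range -1.39 to -0.48) and all 13 were higher in F2Sy (median 1.20, range 0.07 to 1.49), with 5 of the 13 higher at an unadjusted p under 0.05 in F2Sy (1.93% of all miRNAs). The median for the mean of classes was -0.0016, where the sign flips with the scaling. In F2 the median was 0.22, which turned to -1.07 without MEHP F2 library 2, and in F3 it was -0.49, or -0.04 without MEHP F3 library 1. The median of all miRNAs was 0.02 in F1 and -0.05 in F2Sy. The summed level of the cluster was 1784 and 1974 CPM in MEHP F1 and 3281 and 2900.4 in VZN F1, and 14583 and 9372 in MEHP F2Sy and 7114 and 4918 in VZN F2Sy. In F1 and F2Sy the lineages thus did not overlap, in opposite orders, as did 42.5% and 46.7% of all miRNAs taken singly. The members lie close together and share a source, so they are not independent. miR-471-3p stood at 804 and 688 against 359 and 213 CPM in F2Sy (1.49 ± 0.53, adjusted p = 0.976, edgeR).

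The miR-290-295 cluster, which marks pluripotent and early germ cells, had 11 tested members with 0 called by edgeR. DESeq2 called 3 of them lower in F3, beside 19 of all 362 miRNAs. All 11 had a mean fold change below 0 (median -0.32), which came mostly from F3, where the median was -1.34 with all 11 below 0 and 7 of them lower at an unadjusted p under 0.05 (13.3% of all miRNAs), while 41.7% of all miRNAs were above 0 in F3. The summed level there was 10473 and 8759 CPM in MEHP and 10139 and 20869 in VZN, so the lineages overlap and VZN F3 library 2 stands highest of all 16. Without MEHP F3 library 1 the F3 median was -0.69. miR-291a-3p stood at 59.8 and 100.3 against 181 and 372 CPM (-1.83 ± 0.47, adjusted p = 0.0880, edgeR), miR-294-3p had -1.36 and miR-295-3p -1.59. Without that library the values were -1.43, -1.05 and -1.08. All 3 carry the AAGUGCU seed shown above, as do miR-302b-3p and miR-302d-3p of the miR-302-367 cluster, whose 3 tested members had a median of -0.29 for the mean of classes with 0 called, or -0.14 without MEHP F3 library 1. These levels are low beside the germ cell fraction, where miR-291a-3p stood at 2169 to 5815 CPM against 48.6 to 372 in the somatic libraries. How far remaining germ cells set these somatic values was not tested.

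**Figure D4:**
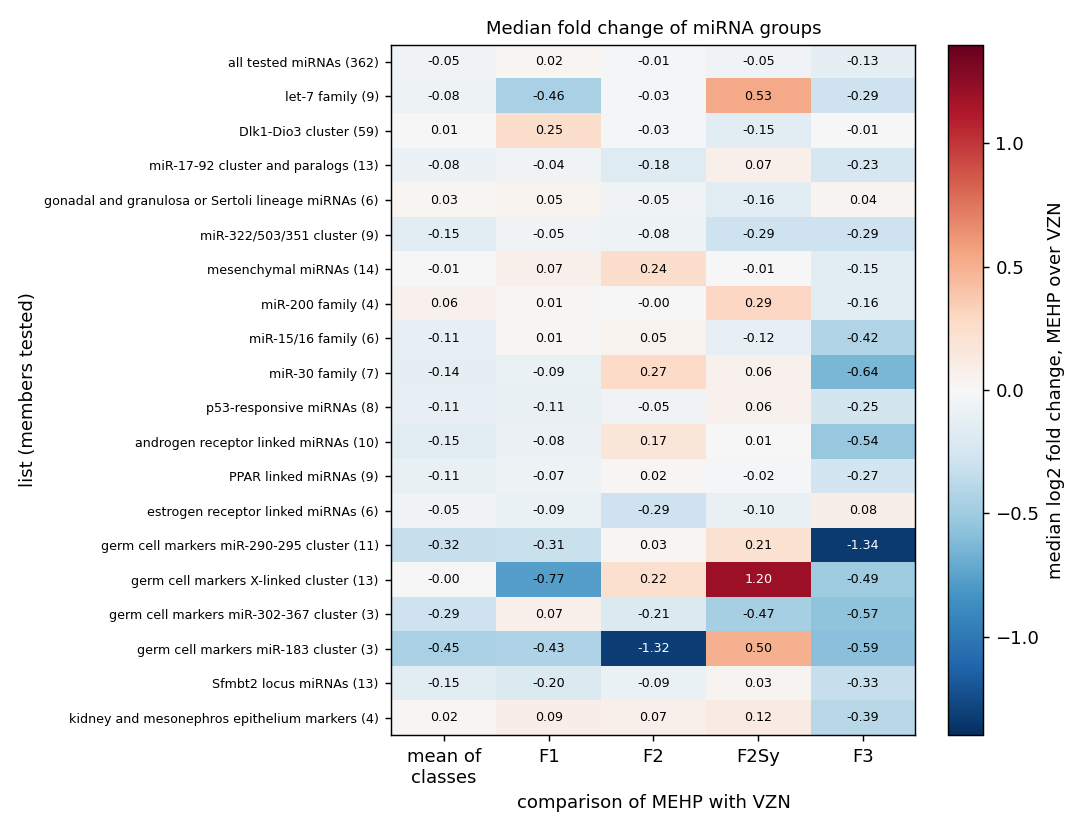
Median log2 fold change (MEHP over VZN, colour and printed value) of the tested members of each miRNA group (rows, number of members in brackets) for the mean of classes and for each generation class (columns). The X-linked germ cell cluster changes from -0.77 in F1 to 1.20 in F2Sy. The miR-290-295 cluster is at -1.34 in F3 and the miR-183 cluster at -1.32 in F2, where all miRNAs in the top row have -0.13 and -0.01. The let-7 family (-0.46 in F1 and 0.53 in F2Sy) and the miR-30 family (-0.64 in F3) also lie away from the top row.

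Other cell types were judged from markers as well. The erythroid list had 2 tested members of 7, miR-451a and miR-486b-5p, with 0 called and a median of 0.52 for the mean of classes, which fell to 0.21 without MEHP F2Sy library 2; its summed level was 14119 at the lowest, 17877 at the median and 86188 at the highest CPM in MEHP and 9482 at the lowest, 15783 at the median and 21550.3 at the highest in VZN. The leukocyte list summed to 104 to 263 CPM in MEHP and 121 to 323 in VZN, and the endothelial list to 16721 to 30782 and 21083 to 29089. The liver list was blank in 7 of 16 libraries and reached 821 CPM in MEHP F1 library 2 and at most 70.6 in VZN. Of the let-7 family, which rises as cells mature, all 9 tested members were above 0 in F2Sy (median 0.53), against 45.3% of all miRNAs. In F1 1 of 9 was above 0 (median -0.46), against 54.1% of all miRNAs. The members carry one seed and are close in sequence. With all libraries in the fit 0 were called. The median for the mean of classes was -0.08, which turned to 0.04 without MEHP F3 library 1. The summed level of the family in F2Sy was 90353 and 50629 CPM in MEHP against 65559 and 54248 in VZN, so the lineages overlap. The MEHP F2Sy pair holds the highest and the lowest of the 16 libraries. Of the miR-30 family all 7 were below 0 in F3 (median -0.64, -0.53 without MEHP F3 library 1). Of all miRNAs 41.7% were above 0 there. Again edgeR called 0 of the family, and DESeq2 called 2 lower, beside 19 of all 362 miRNAs. The summed level of that family in F3 was 13468 and 12368 CPM in MEHP against 13311 and 23622 in VZN. The lineages thus overlap, and VZN F3 library 2 stands highest of the 16 libraries. The remaining lists (miR-17-92 with paralogs, miR-200, miR-15/16, miR-29, p53-responsive, Sfmbt2 locus, kidney and mesonephros epithelium, muscle, neural and hypoxia) had 0 edgeR calls in any class with all libraries in the fit, and their medians for the mean of classes lay between -0.22 and 0.15. DESeq2 called miR-29a-3p, miR-195a-5p and miR-194-5p of these lists lower in F3. The 2 tested members of the miR-29 family had a median of -0.93 in F3. Each was lower at an unadjusted p under 0.05 (edgeR), as were 13.3% of all miRNAs. The summed level of that family in F3 was 83.6 and 162 CPM in MEHP against 243 and 241 in VZN. The lowest of the 16 libraries is MEHP F3 library 1, and the F3 median without it is not given here. All 13 Sfmbt2 locus miRNAs were below 0 for the mean of classes, where 39.5% of all miRNAs were above 0. Their median was small, at -0.15. By class, 4 of 13 were above 0 in F1, 2 in F2, 7 in F2Sy and 3 in F3. The members share a locus, so they are not independent.

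Fold changes followed the GC content of the mature sequence in every class. Across the 317 miRNAs with a sequence, which share the same 16 libraries and are not replicates, Spearman's rho between GC content and log2 fold change was 0.55 in F1, -0.28 in F2, -0.55 in F2Sy and 0.64 in F3, so its sign differed between classes. In F3 the median log2 fold change was -0.55 among the 101 miRNAs with the lowest GC content (up to 40.9%) and 0.42 among the 65 with the highest (from 56.5%). Within MEHP F3 library 1, the deviation of a miRNA from its mean over libraries followed GC content with a rho of 0.80, and in the other 15 libraries the rho lay between -0.57 and 0.33. With offsets that take out the GC trend of each library, the F3 comparison of the same 317 miRNAs had 0 calls in place of 1, 51 miRNAs at an unadjusted p under 0.05 in place of 68, and a median size of 0.25 in place of 0.38. The F2 comparison also had 0 calls in place of 1, with miR-183-5p at -2.73 and an adjusted p of 0.0522 (edgeR). With these offsets the median of the X-linked germ cell cluster was -0.73 in F1 and 0.96 in F2Sy, but -0.07 in F3 in place of -0.49. That of the let-7 family went from -0.46 to -0.28 in F1, from 0.53 to 0.35 in F2Sy and from -0.29 to 0.22 in F3.

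**Figure D5:**
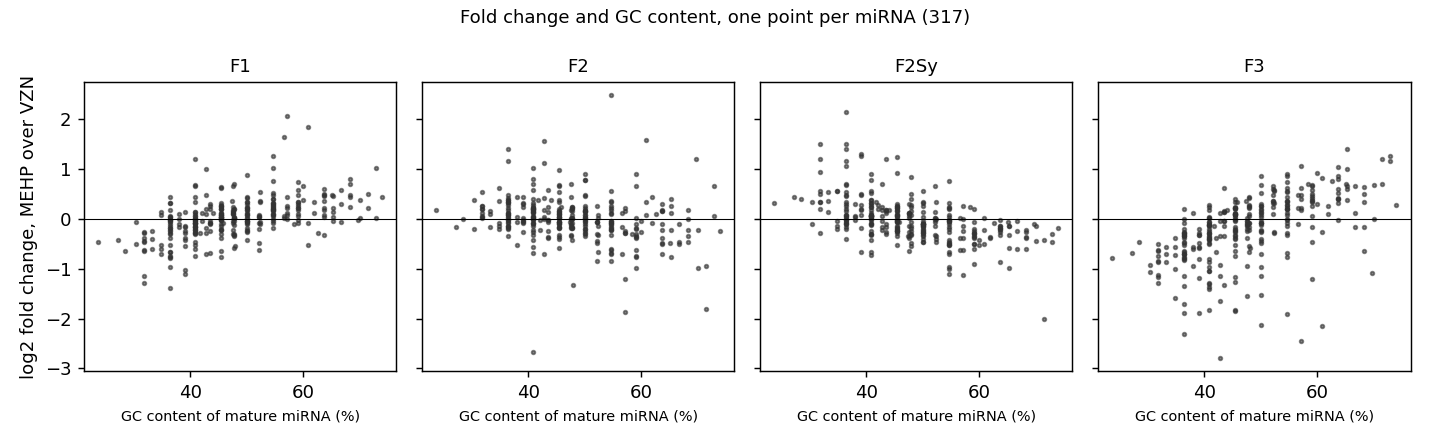
Log2 fold change (MEHP over VZN, vertical axis) against the GC content of the mature miRNA in percent (horizontal axis), one point for each of 317 miRNAs, by generation class. The trend rises in F1 and F3 (rho 0.55 and 0.64) and falls in F2 and F2Sy (rho -0.28 and -0.55).

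The difference between the lineages was not shown to be particular to somatic cells. Over the 261 miRNAs listed in all 32 MEHP and VZN libraries of both fractions, the test of the somatic difference against the germ cell difference called 0% (smallest adjusted p 0.951, edgeR), with 7 (2.68%) at an unadjusted p under 0.05, and 3 calls without VZN germ cell F2Sy library 2. In the germ cell fraction alone, 0% of 310 miRNAs were called (smallest adjusted p 0.565, edgeR), with 12 (3.87%) at an unadjusted p under 0.05. In the test between fractions the smallest p belonged to miR-409-3p, followed by miR-291a-3p, miR-30b-5p, miR-183-5p, miR-293-5p and miR-296-5p. Of these, miR-183-5p differed by -0.72 in somatic and 0.05 in germ cells on average, a difference of -0.77 ± 0.34. miR-296-5p, of the imprinted Gnas region, differed by -0.14 and 0.71, a difference of -0.85 ± 0.39. VZN germ cell F2Sy library 1 held it at 100.5 CPM, where the other germ cell libraries held 982 to 2388, and without it the difference was -0.61. Without library 2 of that group it was -1.33. With all libraries miR-183-5p and miR-296-5p each had an adjusted p of 0.951 (edgeR).

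miRNAs that were blank in some libraries did not mark either lineage. Of the 563 miRNAs, 51 were listed in none of the 16 libraries and 150 in 1 to 15. No miRNA was listed in at least 7 libraries of one lineage and at most 2 of the other, and the numbers of libraries differed by 0 for 37 miRNAs, 1 for 75, 2 for 26 and 3 for 12. A library listed 442 miRNAs on average in MEHP and 445 in VZN (exact permutation within classes, two-sided, p = 0.673), a difference of -2.88 that was 0.5 without MEHP F3 library 1. The lowest listed value of a library was between 12.6 and 15.7 CPM, so differences among miRNAs below that level are not detectable here.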

How the data were processed

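Per the labels, RNA under 100 bases was extracted from pools of about 80 gonads, with a RIN of at least 8. The authors deposited raw whole-number counts per mature miRNA, which the file headers describe as the canonical form plus its isomiRs. Alignment with Bowtie 1.3.1 to mm39 is named per the submitters' processing notes. Not given in the sources used here are the annotation counted against, the counting rule and what leaves a cell blank. Totals of listed counts lack the reads of blank cells, so they are no measure of sequencing depth. Reads carry no molecular identifiers.

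The design assumed a complete table. Blanks made it necessary to restrict each fit to miRNAs listed in all of its libraries: 362 in 16 somatic libraries, 261 in 32 libraries of both fractions and 310 in 16 germ cell libraries. The robust quasi-likelihood test of edgeR 4.0.16 (R 4.3.3) was used, two-sided, with TMM factors and the filterByExpr filter, 1 mean per group, 8 residual degrees of freedom and a common biological coefficient of variation of 0.293. Contrasts were each class, their mean, their joint difference and the difference between fractions. p-values were adjusted by Benjamini-Hochberg over all miRNAs of a comparison and called under 0.05. Standard errors and 95% intervals were derived from the fold change and its F statistic. CPM use the listed total, and a prior count of 2 enters log2 CPM. The procedure was tested on simulated data.

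Named miRNAs are the 12 with the smallest p and the 10 most abundant for the mean. In a class they are up to 5 calls per direction or, with no call, the 3 with the smallest p, and for the joint and fraction tests the 6 with the smallest p. Up to 4 abundant members stand for each list. Others (miR-125b-5p by library, miR-3968, miR-700-5p) were picked after their values were seen. The members and lists were chosen with earlier results of these data known. Replicate numbers did not pair the libraries: deviations of same-numbered libraries correlated at 0.40, -0.27, -0.06 and -0.15 in F1, F2, F2Sy and F3. Alternatives were RLE factors, library size alone, DESeq2 1.42.0, blanks as 0, all somatic libraries in the fit, an additive model, the replicate block, and leaving out a class or each library in turn. Blanks at the smallest listed count, crossed numbers, GC offsets (a loess per library) and the set with known sequence were added after the data were seen. Sequences and positions are RefSeq's for GRCm38.p6, with host genes from GENCODE M21 of the same build, and the deposited table holds no coordinates.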

Additional observations from a re-analysis of the deposited data

Results flagged for a closer look

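Among the 8 libraries of a lineage, 72 measures were checked for a single library far from the rest by Dixon's criterion, and 15 were flagged; chance flags about 1 in 20. In these checks the generation classes are pooled, so a class that differs can also be flagged. MEHP F3 library 1 accounts for 8 of the 15. It listed 420 miRNAs, where the other MEHP libraries listed 437 to 452, and its count-weighted GC content was 48.6% against 44.0 to 45.4%. It was highest for let-7d-3p at 1436 CPM, for miR-181a-5p at 46964 CPM, for miR-485-5p at 641 CPM and for miR-92a-3p at 50685 CPM. It was lowest for the mesenchymal miR-199b-3p at 14064 CPM and for the gonadal miR-202-5p at 29191 CPM, whose next values were 30103 and 56973 CPM.

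VZN F3 library 2 was highest for miR-195a-5p at 222 CPM, for miR-30e-5p at 3565 CPM and for miR-3102-3p at 572 CPM. MEHP F2 library 2 was highest for miR-195a-5p at 124 CPM and for miR-3102-3p at 206 CPM. VZN F2 library 2 was highest for miR-323-5p at 45.7 CPM, and MEHP F2Sy library 2 for the erythroid miR-451a at 85923 CPM, where the other MEHP libraries held 13995 to 19535 CPM.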

How the results depend on the processing

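The absence of calls for the mean of classes and for F1 held under every alternative in which no library was left out. The F2 call count of 1 fell to 0 with RLE factors, with blanks as 0 or at the smallest listed count, with GC offsets, and with the replicate block in either numbering; the F3 count of 1 fell to 0 with all somatic libraries in the fit, with GC offsets and with the replicate block in either numbering, and was 3 with blanks at the smallest listed count and 22 with DESeq2. The F2Sy count of 0 became 2 with DESeq2 and 2 with blanks at the smallest listed count, and the joint test of classes 14 and 1. With a library left out, the counts ranged from 0 to 4 for the mean, 0 to 1 for F2 and F2Sy, 0 to 102 for F3, 0 to 53 for the joint test and 0 to 3 for the difference between fractions. For the mean, the 4 calls came without MEHP F3 library 2 and 1 call without VZN F3 library 1 (miR-183-5p, -0.91, against -0.43 without VZN F3 library 2); for the fractions, the 3 came without VZN germ cell F2Sy library 2. For the joint test, 6 came without VZN F3 library 1, 2 without MEHP F2 library 1 and 1 without MEHP F2Sy library 1 or VZN F3 library 2. For F2, the count was 0 without any library except the VZN F3 pair, whose removal left it at 1. For F3, it was 0 without any MEHP F1, VZN F1, VZN F2 or VZN F2Sy library, MEHP F3 library 1 or VZN F3 library 2, it was 2 without either MEHP F2 library, and 11 without VZN F3 library 1. For F2Sy, 1 (miR-451a) came without MEHP F2Sy library 1. The difference in listed miRNAs of -2.88 became 0.5 without MEHP F3 library 1, with a range of -6.25 to 0.5, and that in listed totals ranged from 21881 to 600102. miR-96-5p turned from -0.45 on average to 0.0164 without the F3 class. Library size alone moved the median of all miRNAs from 0.02 to 0.12 in F1 and from -0.05 to -0.15 in F2Sy. Apart from the GC offsets and the left-out libraries, whose construction is given, the cause of these changes was not tested. miRNAs below the lowest listed values, 12.6 to 15.7 CPM or counts of 110 to 149, cannot be seen here. What sets that floor is not given in the sources used.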
